A study of Homo sapiens with 12 samples.

Results

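The genes described here encode the receptors through which neurons sense GABA, glycine and acetylcholine: the GABA-A and GABA-B receptor subunits, the glycine receptor subunits with gephyrin, the protein that anchors them, the nicotinic acetylcholine receptor subunits and the muscarinic receptors. They were matched by gene symbol, with no value of the tables in the rule, although the families themselves were picked with earlier results of these data known. The families hold 48 annotated genes, of which 45 were found in 1 or both deposited tables and 33 in both. The iMN table listed 37 of them, on 40 of its 16406 rows, and the i3N table listed 41, on 44 of its 19016 rows. *CHRM1*, *GABRA6* and *GABRP* were in neither table and were not analysed here.

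RNA was sequenced from 12 libraries of 2 kinds of human neuron. The iMNs, labelled HB9-iMN and motor neuron, were differentiated from 1 induced pluripotent stem cell line carrying a tdTomato reporter under the HB9 promoter and were sorted for tdTomato. The i3Ns, labelled iNeuron and cortical neuron, were made from H1, an established human embryonic stem cell line, by inducing the transcription factor NGN2. Each kind received a lentivirus with a doxycycline-inducible shRNA, either against *SMN1* and *SMN2* (SMN-KD, labelled SMN shRNA) or scrambled (SCR, labelled Scramble shRNA), with 3 libraries of each, so the control cells also carried a virus and received doxycycline. Nothing in the labels says whether the libraries of a group came from separate differentiations.

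The value used for each gene was the authors' mean normalised read count over the 6 libraries of a cell type, SCR and SMN-KD together. It carries no spread over libraries, so no SD, interval or test could be given, the depth of each library is unknown, and neither SMN-KD against SCR nor *SMN1* and *SMN2* in each library was examined. The tables were also normalised separately, and each cell type came from its own stem cell line and protocol, so these 3 cannot be told apart in any difference between the tables. In such bulk RNA, fewer cells of a type and less RNA per cell cannot be told apart either. A gene that a table does not list is not known to be at 0: the rule by which genes were kept is not given in the sources used here, and the lowest listed mean was 7.73 in the iMN table and 1.37 in the i3N table.

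GABA-A, glycine and nicotinic receptors are pentamers of related subunits around an ion channel. GABA-A and glycine receptors pass chloride, whereas nicotinic receptors pass cations and excite the cell. GABA-B and muscarinic receptors have no channel and act through G proteins. In the spinal cord, motor neurons are inhibited by glycine and GABA, and they release acetylcholine onto muscle and onto Renshaw cells, which carry nicotinic receptors. Which subunits a cell makes sets the affinity, kinetics and pharmacology of its receptors.

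The pentameric subunits share a short loop between a pair of disulphide-bonded cysteines in the extracellular part, which gives the family its name of Cys-loop receptors. All 39 pentameric genes with an annotated coding sequence held exactly 1 stretch of this pattern. In it, 13 residues lie between the cysteines, with a proline at the 8th place after the first cysteine. The remaining pentameric gene, *GLRA4*, is annotated as a unitary pseudogene in humans and has no annotated coding sequence. The 9 *CHRNA* genes also held a pair of adjacent cysteines 40 to 70 residues further on, the vicinal cysteines of the acetylcholine site, and 0 of the other 30 genes did. The stretches of 7 subunits that the levels turn on are shown 5′ to 3′ on the coding strand, 45 bases each, with the cysteine codons in capitals. Each lies inside 1 coding exon of the MANE Select transcript (GENCODE 44, GRCh38).
GABRA3: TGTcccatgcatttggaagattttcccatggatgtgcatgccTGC
GLRA2: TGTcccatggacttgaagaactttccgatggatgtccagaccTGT
GLRB: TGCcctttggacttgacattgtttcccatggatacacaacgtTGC
CHRNA3: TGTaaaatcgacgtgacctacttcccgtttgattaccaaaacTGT
CHRNA4: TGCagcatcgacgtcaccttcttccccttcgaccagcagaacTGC
CHRNB2: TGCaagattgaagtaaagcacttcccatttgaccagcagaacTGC
CHRNB4: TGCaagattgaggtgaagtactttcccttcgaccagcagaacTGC

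The *GABRA3* stretch lies at chrX:152224782-152224826 on the minus strand, in exon 6 of 10. The *GLRA2* stretch lies at chrX:14604334-14604378 on the plus strand, in exon 5 of 9, and the *GLRB* stretch at chr4:157136823-157136867 on the plus strand, in exon 6 of 10. For the nicotinic genes the positions are chr15:78602123-78602167 (*CHRNA3*, minus strand), chr20:63350886-63350930 (*CHRNA4*, minus strand), chr1:154571286-154571330 (*CHRNB2*, plus strand) and chr15:78629804-78629848 (*CHRNB4*, minus strand), each in exon 5 of 6. The closest pair was *CHRNB2* and *CHRNB4*, identical at 39 of 45 bases (86.7%). Across families, *GABRA3* and *GLRA2* shared 34 bases (75.6%), more than the 28 (62.2%) shared by the glycine receptor subunits *GLRA2* and *GLRB*. The farthest pair was *GLRB* and *CHRNB2*, with 20 shared bases (44.4%).

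The cell type labels were checked against marker genes. Pan-neuronal genes were at like levels, with 0 of 5 past 4-fold between the tables, and of 7 glial markers 2 were in the iMN table and 4 in the i3N table, with *GFAP*, *AQP4* and *SOX10* in neither. The motor neuron list went against the label in part. All 8 of its genes were in both tables, and 4 of them, all transcription factors, were past 4-fold higher in i3Ns: *MNX1* (HB9 itself) had a mean of 430 in iMNs and 2279 in i3Ns, *ISL1* 1663 and 14299, *ISL2* 70.6 and 3558, and *LHX3* 15.1 and 230. The cholinergic genes of the list did not follow them, with *CHAT* at 533 and 527 and the choline transporter *SLC5A7* at 8460 and 2472. The forebrain genes were higher in i3Ns (*TBR1* 10.2 and 1801), as were the glutamate transporters *SLC17A6* (593 and 11237) and *SLC17A7* (50.1 and 6490). The tables were assigned to cell types by their names, which match the library names in the labels, and no value per library could check this. An exchange of the tables would turn the direction of every difference given between iMNs and i3Ns. Both kinds of neuron are therefore called here by the names iMN and i3N, and not by a cell type. Of 4 progenitor and cycling genes, 3 were past 4-fold higher in i3Ns, and pluripotency genes were mostly listed there alone, with *MKI67* at 28.3 and 522 and *LIN28A* at 215 and 4216, and the summed mean of 4 mesenchymal genes was 2596 in iMNs and 6228 in i3Ns after scaling. The part of these cells in the differences below was not tested.

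Receptor genes covered nearly the whole range of levels. Of the 37 listed in iMNs, 12 had a mean of 1000 or more, 17 lay from 100 to 1000, 7 from 10 to 100 and 1 below 10. In i3Ns these counts were 14, 9, 10 and 8 of 41. They were lower than genes in general: the median was 377 against 925 over all genes in iMNs, and 211 against 620 in i3Ns. A mean of 1000 or more in both tables was found for 10 genes, among them *GABRA3*, *GABBR1*, *GABBR2*, *GLRA2*, *GPHN*, *CHRNA4*, *CHRNB2*, *CHRM2* and *CHRM3*. *GABRA2* was among the genes that reached that level in iMNs alone. In i3Ns alone it was reached by *CHRNA3*, *CHRNA5*, *CHRNA7* and *CHRNB4*. The plot of mean counts by gene shows the values of 42 receptor genes.

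**Figure D1:**
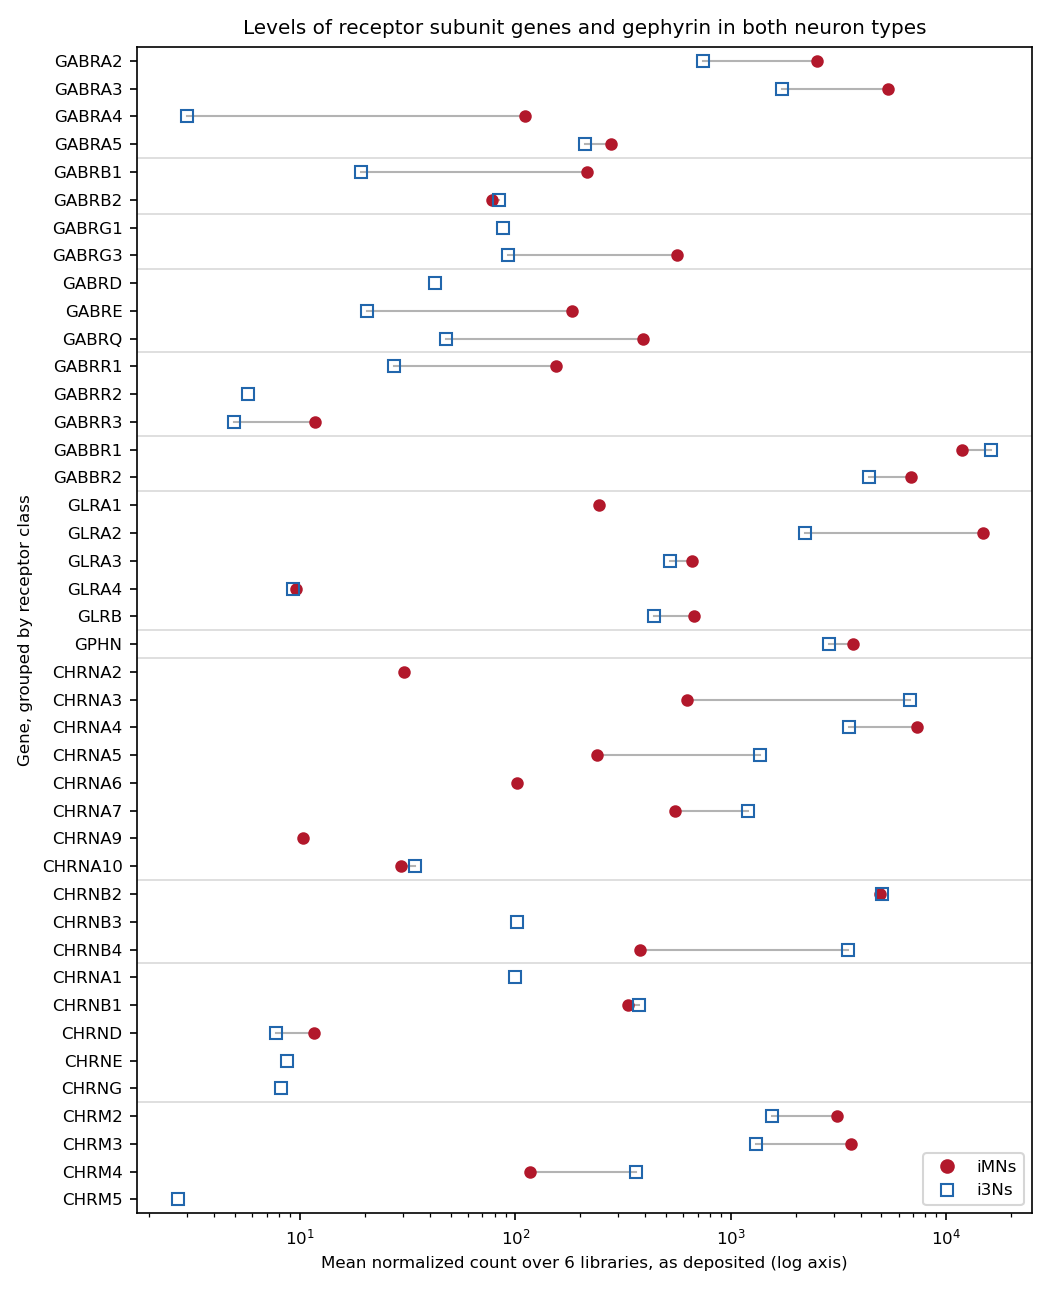
Mean normalised read count (log axis) of 42 receptor genes, gephyrin included, in the iMN and i3N tables, grouped by receptor class; red circles are iMNs and blue squares i3Ns, and each is the authors' mean over 6 libraries as deposited, with no error available. Of the genes drawn, *GLRA2* and *GABBR1* lie highest in iMNs (14737 and 11863), and *GABBR1* in i3Ns (16169).

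To compare the tables, both were scaled to the same sum over the 15666 genes in both (i3N means multiplied by 0.962), and a gene was counted as different when its scaled means differed by 4-fold or more and 1 or both means were at least 10. Among the 32 receptor genes compared, 7 (21.9%) were higher in iMNs by this rule, where 5.31% of all 15487 genes compared were. Higher in i3Ns were 3 receptor genes (9.38%), against 3.11% of all genes. The 7 were 6 GABA-A subunits (*GABRA4*, *GABRB1*, *GABRG3*, *GABRE*, *GABRQ* and *GABRR1*) and the glycine receptor subunit *GLRA2*, whereas the 3 were nicotinic subunits (*CHRNA3*, *CHRNA5* and *CHRNB4*). The other 22 lay within 4-fold. The median log2 ratio of i3N over iMN was −0.65 over the receptor genes and 0.03 over all genes, and 21 of the 32 ratios were below 0. Receptor genes listed in 1 table alone, 8 in i3Ns and 4 in iMNs, could not enter these counts. The i3N table also listed more genes in general, 18390 against 15899 in the iMN table, with 15666 in both. Nothing is therefore read from 8 against 4. The lowest listed mean was 7.73 in iMNs and 1.37 in i3Ns. A gene low in i3Ns could thus stay in the comparison where a gene as low in iMNs could not.

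**Figure D2:**
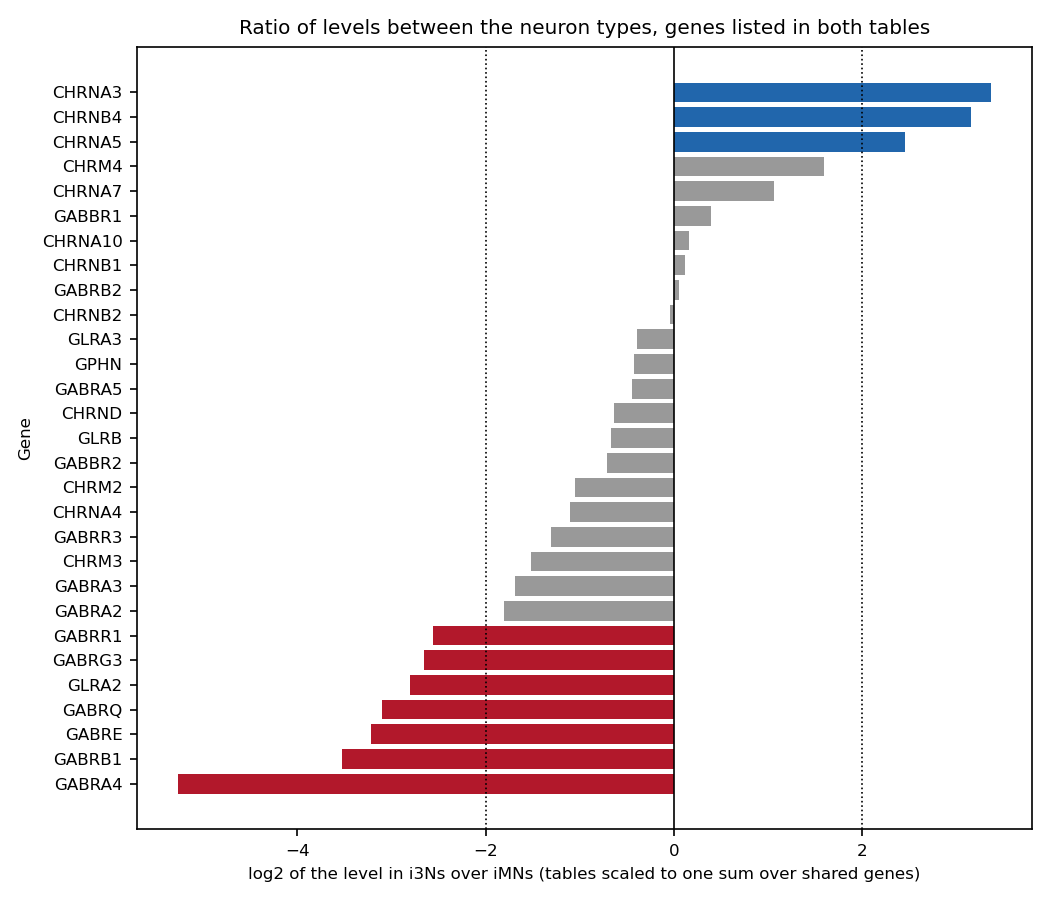
Log2 ratio of i3N over iMN mean for 29 of the receptor genes compared, after scaling, ordered by ratio, with dotted lines at the 4-fold limits and genes past them in blue (higher in i3Ns) or red (higher in iMNs); no error is available. The GABA-A subunit *GABRA4* lies lowest (−5.27, with an i3N mean of only 2.99) and the nicotinic subunits *CHRNA3* (3.37) and *CHRNB4* (3.15) lie highest.

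GABA-A alpha subunits form, with the beta subunits, the GABA site, and the alpha next to a gamma subunit forms the benzodiazepine site. *GABRA3*, encoding alpha3, led in both cell types. Its mean was 5363 in iMNs and 1732 in i3Ns, 3.22-fold higher in iMNs after scaling and so within the 4-fold limit. Shares, class sums and ratios between receptor genes were taken per kb of the main transcript unless stated otherwise. Bands of levels, medians over genes and ranks among all genes use undivided means. Per kb, *GABRA3* held 77.9% of the summed alpha level in iMNs and 73.2% in i3Ns. *GABRA2* was next, with means of 2498 and 740 (3.51-fold higher in iMNs) and shares per kb of 15.6% and 13.5%. The alpha order was thus alike in both tables down to *GABRA5*, which is best known from the hippocampus, with means of 278 and 211 and shares of 5.81% and 12.8%. *GABRA4*, an alpha of extrasynaptic receptors, had the widest gap of the receptor genes compared: a mean of 111 in iMNs and 2.99 in i3Ns, 38.7-fold higher in iMNs, although it made up only 0.531% of the iMN alpha level per kb. Its i3N mean was under the minimum of 10, which the gene passed through iMNs alone, and near the lowest listed i3N mean of 1.37. The size of this fold is therefore uncertain.

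Of the beta subunits, *GABRB1* had a mean of 214 in iMNs and 19.3 in i3Ns, which is 11.5-fold higher in iMNs. *GABRB2*, which is common in the adult brain, was at 78.2 and 84. The beta subunits thus differed among themselves, since the ratio of *GABRB2* was close to 0 (0.05).

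Gamma subunits bring GABA-A receptors to synapses and complete the benzodiazepine site. *GABRG3* was at 561 and 92.1, 6.33-fold higher in iMNs. *GABRG1* was listed in the i3N table alone, at 87.1. The rarer epsilon and theta subunits differed more. *GABRE* (epsilon) had a mean of 183 in iMNs and 20.5 in i3Ns (9.29-fold higher in iMNs), and *GABRQ* (theta) 393 and 47.7 (8.55-fold). *GABRD*, the delta subunit of extrasynaptic receptors, was listed only for i3Ns, at 42.3. Of the rho subunits, which form receptors of their own in the retina, *GABRR1* was at 154 and 27.2 (5.89-fold higher in iMNs), *GABRR3* was at 11.7 and 4.92, and *GABRR2* was listed only for i3Ns, at 5.75. Of 14 GABA-A genes compared, 11 had a ratio below 0. Past 4-fold were 6, all higher in iMNs, where 5.31% of all genes compared were. *GABRG1*, *GABRD* and *GABRR2*, listed in i3Ns alone, could not enter these counts. The summed level per kb over all listed GABA-A genes differed less, by 1.25-fold, at 4486 in iMNs and 3598 in i3Ns after scaling.

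**Figure D3:**
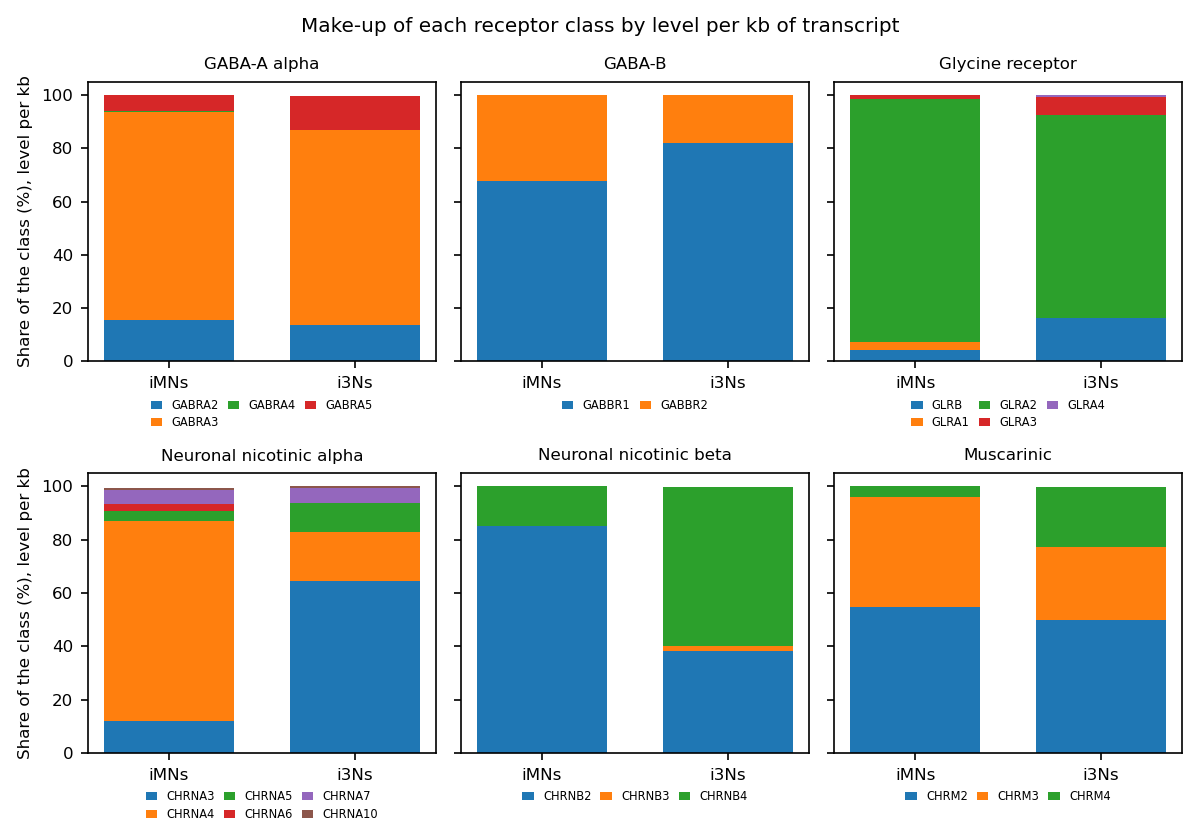
Share of each subunit in the summed level per kb of main transcript of its class, in percent, as stacked bars for iMNs and i3Ns in 6 classes, without subunits under 0.5% in both; each share comes from the authors' means and has no error. *GABRA3* and *GLRA2* lead in both cell types, whereas *CHRNA4* (75.1%) and *CHRNB2* (85.3%) lead the nicotinic classes in iMNs and *CHRNA3* (64.7%) and *CHRNB4* (59.9%) in i3Ns.

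Glycine receptors showed the widest difference of any class sum. *GLRA2*, the alpha subunit that predominates in the fetal nervous system, had a mean of 14737 in iMNs, above 97.3% of all genes in that table, and of 2207 in i3Ns, which is 6.94-fold higher in iMNs. *GLRA1*, the alpha of adult spinal cord receptors and the main gene of hereditary hyperekplexia, was listed only in the iMN table, at 245. *GLRA3* was at 659 and 524. *GLRB*, the beta subunit that binds gephyrin, was at 676 and 442, and *GPHN*, which encodes gephyrin, at 3702 and 2852. The pseudogene *GLRA4* was at 9.63 and 9.31. Per kb, *GLRA2* held 91.2% of the glycine receptor level in iMNs and 76.4% in i3Ns, *GLRB* 4.42% and 16.2%, and *GLRA1* 2.69% in iMNs. With the median transcript length of each gene in place of the main transcript, the share of *GLRA2* was 78.1% in iMNs and 46.1% in i3Ns, and it still led the class. Per kb of main transcript, *GLRA2* was 20.6 times that of *GLRB* in iMNs and 4.72 times in i3Ns, while *GPHN* was 4.67 and 5.5 times *GLRB*. The class sum per kb was 5035 in iMNs and 867 in i3Ns after scaling, 5.81-fold higher in iMNs. Within a table, where no scaling enters, the glycine receptor sum was 1.12 times the GABA-A sum in iMNs and 0.241 times in i3Ns. Other transcript lengths were tried for shares and leading subunits only. How far class sums and their ratios depend on the division by length was not tested.

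Many neuronal nicotinic receptors combine alpha subunits with the beta subunits *CHRNB2* or *CHRNB4*, and others form from alpha subunits alone, such as alpha7. The pair alpha4 and beta2 is the main form of the brain, and alpha3 and beta4, often with alpha5, that of autonomic ganglia. *CHRNA4* had a mean of 7302 in iMNs and 3545 in i3Ns, 2.14-fold higher in iMNs. *CHRNB2* was at 4938 and 5002. *CHRNA3* was at 628 and 6758, *CHRNB4* at 377 and 3484 and *CHRNA5* at 240 and 1366, higher in i3Ns by 10.3-fold, 8.89-fold and 5.48-fold. The level per kb of *CHRNA4* was 6.28 times that of *CHRNA3* in iMNs and 0.283 times in i3Ns, and that of *CHRNB2* was 5.81 and 0.636 times that of *CHRNB4*. The leading alpha and the leading beta subunit by this measure thus differed between the tables, from *CHRNA4* and *CHRNB2* in iMNs to *CHRNA3* and *CHRNB4* in i3Ns. With no division by length, *CHRNB2* led in i3Ns too, with 58.2% of the beta sum against 40.6% for *CHRNB4*.

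*CHRNA7*, which forms pentamers by itself and passes much calcium, had means of 551 and 1196, 2.09-fold higher in i3Ns. Its values are uncertain, since *CHRFAM7A*, a partial copy at chr15:30360566-30393849, shares several of its exons and was itself at 171 and 296. *CHRNA10*, a subunit of hair cell receptors, was at 29.5 and 34.2. *CHRNA6*, known from midbrain dopamine neurons, was listed in iMNs alone at 102, *CHRNA2*, a marker of spinal Renshaw and other interneurons, at 30.4 and *CHRNA9*, the partner of alpha10, at 10.3. *CHRNB3*, an accessory subunit often found with alpha6, was listed in i3Ns alone at 102. Of 7 neuronal nicotinic genes compared, 5 had a ratio above 0, among them *CHRNA10* at only 0.16. The ratio of *CHRNB2* was close to 0 (−0.04), with the other sign when the values were taken as deposited. *CHRNA2*, *CHRNA6* and *CHRNA9*, listed in iMNs alone, and *CHRNB3*, listed in i3Ns alone, could not enter this count. The summed level per kb was 2730 in iMNs and 5487 in i3Ns after scaling, 2.01-fold higher in i3Ns, and it was 0.609 times the GABA-A sum in iMNs and 1.53 times in i3Ns.

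Muscle-type nicotinic subunits form the receptor of the neuromuscular junction. *CHRNB1* was at 334 in iMNs and 376 in i3Ns. *CHRNA1*, the alpha subunit, was listed in i3Ns alone at 100, and *CHRND* was at 11.6 and 7.73. The epsilon and gamma subunits, which replace each other as muscle matures, were listed in i3Ns alone, *CHRNE* at 8.69 and *CHRNG* at 8.15. Of 7 skeletal muscle markers, 3 were listed in iMNs and 6 in i3Ns, with summed means of 116 and 97.7 after scaling, and *MYOG* was in neither table. *RAPSN*, whose protein clusters the muscle receptor, was in neither table.

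Among the receptors that act through G proteins, *GABBR1* and *GABBR2* encode the subunits of the obligate GABA-B heterodimer. *GABBR1* had a mean of 11863 in iMNs and 16169 in i3Ns, and *GABBR2* of 6876 and 4370. These *GABBR1* values are sums over 4 identifiers of the same symbol. The gene lies in the major histocompatibility complex, and the identifier of the main chromosome 6 assembly (ENSG00000204681) held 14.9% of the sum in iMNs and 13.8% in i3Ns, while ENSG00000206466, which is outside the main annotation, held 81.2% and 77.4%. Only the sum is therefore interpretable, and an analysis that kept the main identifier alone would find 1768 and 2226. The muscarinic receptors were led by *CHRM2*, a Gi-coupled receptor, with means of 3109 and 1559 and shares per kb of 54.6% and 49.8%, followed by *CHRM3*, a Gq-coupled receptor, with 3623 and 1311 and shares of 41.4% and 27.3%. In iMNs this order turned with the median transcript length, where *CHRM3* held 52.8%, and with no division by length, where it held 52.9%. *CHRM4*, also Gi-coupled, had a mean of 117 in iMNs and 364 in i3Ns, 3.01-fold higher in i3Ns. *CHRM5* was listed in i3Ns alone, at 2.71. The muscarinic sum per kb was 1.89-fold higher in iMNs, and the GABA-B sum per kb was 3872 and 4202.

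Many of these genes sit in clusters that arose by duplication. With a gap of at most 1 Mb between neighbours, 23 genes fell into 8 clusters, of which the plot of ratios by cluster shows 6. *CHRNA5*, *CHRNA3* and *CHRNB4* lie side by side on chromosome 15 from 78565520 to 78727754, and all 3 were past 4-fold higher in i3Ns. *CHRNA5* and *CHRNA3* overlap over 2218 bases on opposite strands, and whether reads were assigned by strand is not given in the sources used here. In the cluster of *GABRG1*, *GABRA2*, *GABRA4* and *GABRB1* on chromosome 4 (46035769 to 47426447), the 3 genes in both tables had ratios below 0 and 2 of them were past 4-fold. Likewise, *GABRE*, *GABRA3* and *GABRQ* on chromosome X (151953124 to 152657542) all had ratios below 0, with 2 past 4-fold. Neighbours did not always differ by like amounts: *GABRA5* and *GABRG3*, close together on chromosome 15, had ratios of −0.45 and −2.66. *CHRNB3* and *CHRNA6*, neighbours on chromosome 8, were each listed in 1 table, the first in i3Ns and the second in iMNs. The clusters of *GABRR1* with *GABRR2* on chromosome 6 and *CHRND* with *CHRNG* on chromosome 2 each had 1 gene in both tables.

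**Figure D4:**
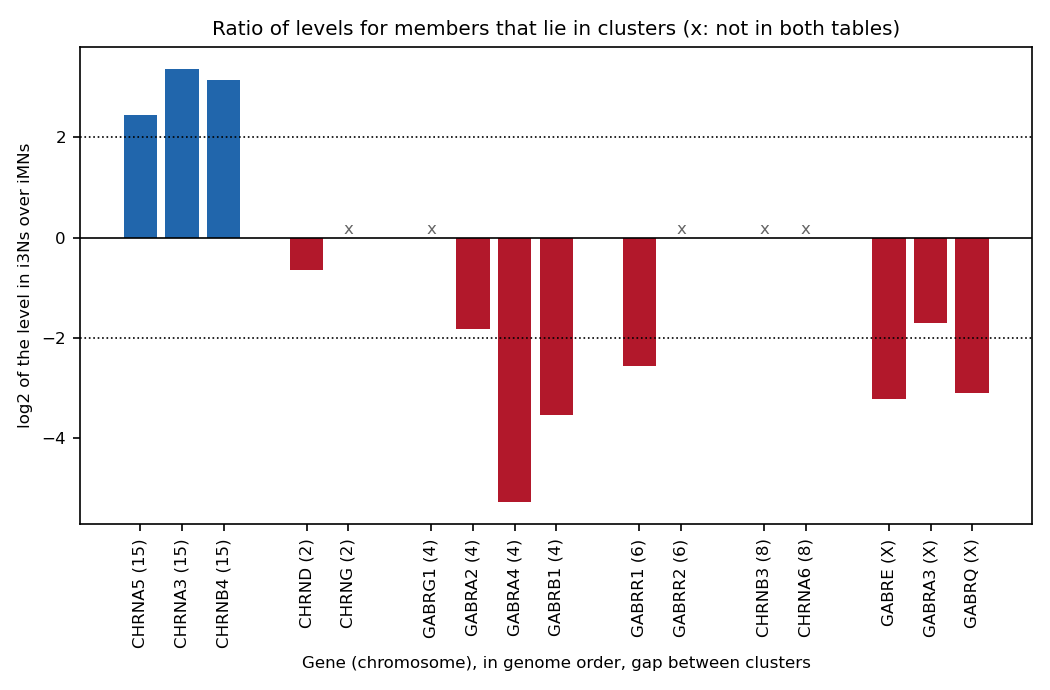
Log2 ratio of i3N over iMN mean of the receptor genes in 6 clusters, after scaling, in their order along each chromosome (in brackets), blue above 0 and red below, with dotted lines at the 4-fold limits and x for genes not in both tables; no error is available. The 3 genes of the *CHRNA5*, *CHRNA3* and *CHRNB4* cluster lie between 2.45 and 3.37. Those genes of the chromosome 4 and X clusters that are in both tables all lie below 0.

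A RefSeq window of 300 bases around the annotated start was matched for 32 of the receptor genes, and its CG dinucleotides were counted. The 11 matched genes with a mean of 1000 or more in 1 or both tables had a median of 29 CG (10 to 50), close to the 25 of all 12530 listed genes matched. The 9 genes with means under 100 had a median of 5 (1 to 14). Genes in general with means that low were not counted apart, so this is not known to be particular to receptor genes. *CHRM2* (10), *GLRA2* (11) and *CHRNB2* (15) had the fewest among the highly expressed genes, and among the matched genes past 4-fold the counts ran from 5 in *GABRR1* to 41 in *GABRE*. These are counts in 1 window per gene and say nothing of methylation, which was not measured.

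Genes that make, move or remove these transmitters, and those that fold and anchor the receptors, were taken as a list of 30, of which 28 were in each table and 27 could be compared. Of these, 3 were higher in iMNs by 4-fold or more (*GAD1*, *GAD2* and *ABAT*) and 1 was higher in i3Ns (*BCHE*), where the shares over all genes were 5.31% and 3.11%, so that nothing is read from these counts. The median log2 ratio was −0.63, against 0.03 over all genes. *GAD1*, which makes GABA, had a mean of 414 in iMNs and 10.3 in i3Ns, and *ABAT*, which degrades it, 7949 and 393. *GAD2* was at 27 and 4.92. The vesicular transporter of GABA and glycine, *SLC32A1*, was at 39.3 and 155, and the neuronal glycine transporter *SLC6A5* was listed in iMNs alone, at 95.6. The *DLX1*, *DLX2* and *DLX5* genes of forebrain GABAergic neurons were listed in i3Ns alone, between 2.17 and 22.2. Butyrylcholinesterase, *BCHE*, was at 73.2 and 1082, whereas acetylcholinesterase, *ACHE*, was at 7708 and 7425.

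The chloride transporters set whether opening a GABA-A or glycine receptor excites or inhibits. *SLC12A2* (NKCC1), which brings chloride in, had means of 1499 in iMNs and 2677 in i3Ns, and *SLC12A5* (KCC2), which extrudes it, of 1954 and 733, with a log2 ratio of −1.47. Neither was past 4-fold. Of the anchoring and assembly genes, 0 of 14 were past 4-fold, a count too small to set apart from the shares over all genes (5.31% higher in iMNs and 3.11% in i3Ns). Their log2 ratios ran from −1.96 for *IGSF21*, which encodes an adhesion molecule of inhibitory synapses, to 1.43 for *KCTD16*. *NLGN2*, the neuroligin of inhibitory synapses, was at 17154 and 10098. The nicotinic chaperones *TMEM35A* (NACHO) and *RIC3* were at 7231 and 4486 and at 1095 and 1373. Of the GABA-B auxiliary subunits, *KCTD12* was at 3851 and 1187 and *KCTD16* at 1944 and 5465.

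For scale, the 16 ionotropic glutamate receptor genes were all in both tables, and their summed level per kb was 7229 in iMNs and 4205 in i3Ns after scaling, 1.72-fold higher in iMNs. Within a table, the GABA-A sum was 0.621 times the glutamate receptor sum in iMNs and 0.855 times in i3Ns. *GRIN2B*, an NMDA receptor subunit, had the widest gap of the 16, at 35504 and 53.9. Of these 16 genes, 6 were past 4-fold higher in iMNs and 1 higher in i3Ns, where the shares over all genes were 5.31% and 3.11%. An excess of genes higher in iMNs was thus not particular to the GABA, glycine and acetylcholine receptors.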

How the data were processed

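Total RNA was depleted of ribosomal RNA and sequenced as paired ends. Trimming was by fastp and quantification by Salmon. Within a cell type, the authors then used DESeq2 for SMN-KD against SCR, and the submitters' processing notes also name STAR and hg38. Versions, the annotation used for quantification and the filter on low counts are not given in the sources used here. Each of the 2 deposited tables holds a mean normalised read count per gene, an expression signal that the authors averaged over 6 libraries, and 4 columns of their own comparison (log2 fold change, its error, p and adjusted p), which were not used. A test on counts per library had been planned and could not be made, because the tables hold no value per library.

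Rows of the same symbol were summed. i3N means were multiplied by 0.962, and genes were compared when 1 or both means reached 10, with 4-fold as the limit. Receptor genes are named with their level in each table that lists them, except a few that are not reported here and that stay in counts, sums and medians. Levels per kb use MANE Select lengths (GENCODE 44). Receptor genes, partner and marker lists were chosen with earlier results of these data known. The alternatives were other scalings, folds, filters and transcript lengths. Python 3.11.15, numpy 2.4.6 and matplotlib 3.10.9 were used. The comparison was also run on simulated data, with changes set well past the 4-fold limit and no unlisted genes. That run checks the calculation alone and says nothing of how separately normalised tables behave. No protein sequences were used here.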

Additional observations from a re-analysis of the deposited data

How the results depend on the processing

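The 7 receptor genes higher in iMNs and the 3 higher in i3Ns numbered the same with the values as deposited, with median-of-ratios scaling, with a minimum mean of 100, with no minimum and with the highest row of a symbol alone. At 2-fold they numbered 14 and 5 (13.6% and 9.93% of all genes), and at 8-fold 4 and 2 (2.4% and 1.2%). Scaling moved no log2 ratio by more than 0.06, and the sign of *CHRNB2* alone changed, with the values as deposited. The leading subunit of the 8 classes in both cell types (16 in all) was the same in 16 with the longest transcript, in 14 with no division by length and in 13 with the median transcript length. With the median length, *GABBR2* (64.7%) was among the new leaders in iMNs, of the GABA-B subunits, as was *CHRM3* (52.8%) of the muscarinic receptors. With no division, *CHRNB2* (58.2%) led in i3Ns and *CHRM3* (52.9%) in iMNs.

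No paired analysis was possible because the tables hold means over libraries and no value per replicate, and for the same reason no replicate was left out. The depth of a library is unknown, so genes that a table does not list have no limit of detection here.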
